A study of Mus musculus with 24 samples.

Results

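The comparison described here sets rested, differentiated T helper 2 (Th2) cells against freshly activated Naïve CD4+ T cells, both from WT mice, and rests on 6 of the 24 arrays of the series, 3 for each group. The groups were taken from the sample labels alone, and no measured value placed an array in a group. The comparison itself was chosen with earlier results of these data known. Every culture began with Naïve CD4+ T cells, isolated from spleen and lymph nodes of mice aged 4 to 6 weeks to a purity of 95%. The stimulated Naïve cells had spent 24 h on plates coated with 1 µg/ml of anti-CD3 and 2 µg/ml of anti-CD28. Resting Th2 cells had met the same coated plates with IL-4 at 10 ng/ml and anti-IFN-γ at 10 µg/ml, received IL-2 at 100 U/ml after 24 h, and were expanded in IL-2 from the third day of culture, without the PMA and ionomycin given to stimulated Th2 cells. The groups therefore differ in time in culture, in time since the last contact with anti-CD3, in IL-4, in anti-IFN-γ and in IL-2, and the parts of these in any difference cannot be told apart. The labels give the mice as Balb/c, whereas the methods of the study describe a mixed B6-129 background. BAF180-deficient cells, in which CD4-Cre deletes part of the Pbrm1 gene in developing T cells, were cultured in the same ways and supply a repeat of the contrast on 6 other arrays. Pbrm1 itself had means of 9.0 in resting Th2 and 8.57 in stimulated Naïve WT cells (not called), and of 7.14 and 6.94 in the deficient cells.

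A Naïve CD4+ T cell that meets antigen and costimulation switches on transcription factors, cytokines and chemokines within hours and then enlarges, making ribosomes, nucleotides and amino acid transporters before it divides. If the signal ends and growth factors such as IL-2 remain, the daughter cells survive as effectors that keep their lineage factor, GATA3 in the case of Th2 cells, but stop transcribing most cytokine genes until they are stimulated again. Rested effectors also regain receptors for survival and for homing, such as the IL-7 receptor, under the control of transcription factors that T cell receptor signals shut off.

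Each gene was measured by DNA probes of 50 bases on the array, and the 5 printed below belong to genes on which the comparison turns: genes of the effector state that were much higher in resting Th2 cells (Ecm1, Vim and Lgals1) and genes of the Th1 program that were much lower (Ifng and Tbx21). The sequences are those of the deposited table; no part of them is singled out.
Ecm1: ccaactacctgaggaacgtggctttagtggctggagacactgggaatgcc
Vim: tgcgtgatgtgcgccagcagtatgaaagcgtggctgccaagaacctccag
Lgals1: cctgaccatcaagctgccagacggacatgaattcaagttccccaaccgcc
Ifng: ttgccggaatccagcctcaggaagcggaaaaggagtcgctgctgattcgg
Tbx21: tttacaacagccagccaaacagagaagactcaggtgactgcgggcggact

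Resting Th2 cells had a higher level of 1190 and a lower level of 1265 of the 10419 genes tested (limma, adjusted p below 0.05), which is 11.4% and 12.1% of the genes. These shares are the background for the counts of every gene list below. At least a 2-fold difference was reached by 553 of the higher genes (5.31% of those tested) and 503 of the lower ones (4.83%). A difference of at least 4-fold was seen for 104 higher and 56 lower genes. Levels are given as normalized log2 intensities of the brightest probe of a gene, so that a step of 1 is a 2-fold change, and differences are resting Th2 minus stimulated Naïve. The median difference over all genes was -0.008. If arrays were scaled to the same median intensity instead, the median moved to -0.092 and the calls split into 795 higher and 1342 lower genes, so that 37.2% rather than 48.5% of the calls were higher. For 3770 genes (36.2%) the arrays of the groups did not overlap. Between 9351 and 10378 probes were detected per array, arrays of a group correlated with r between 0.974 and 0.979 across probes, and no pair across groups exceeded 0.936. The resting Th2 array of replicate C lay apart from the other 2 of its group by more than 2-fold for 260 genes, against 84 to 151 for each other array, and named genes that lose their call without it are given with both values.

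**Figure D1:**
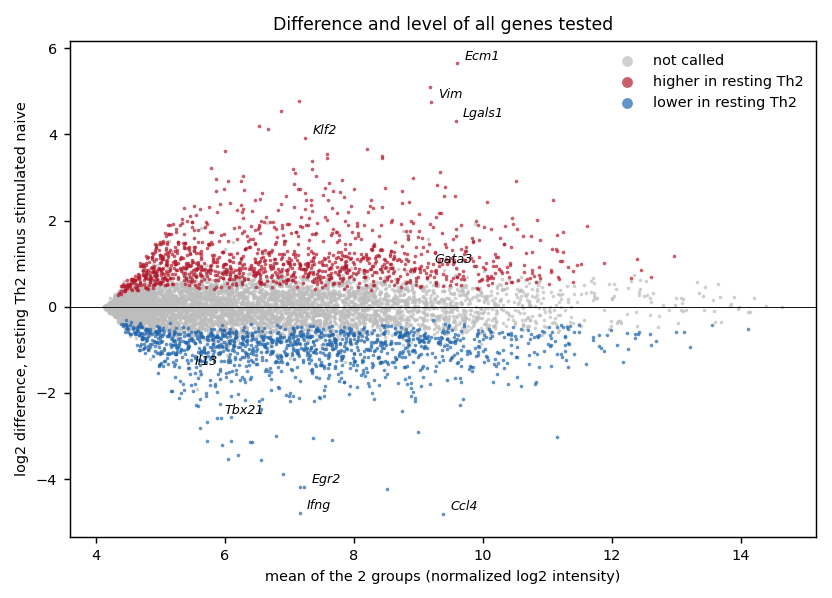
Every gene tested is 1 point, with the mean normalized log2 intensity of the groups on the x axis and the log2 difference, resting Th2 minus stimulated naive, on the y axis. Red and blue points are the 1190 higher and 1265 lower genes, gray points were not called, and the widest differences, up to 5.65 for Ecm1 and down to -4.81 for Ccl4, lie at middle and high levels.

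The genes that stood highest in resting Th2 cells were Ecm1, Myo6, Gpnmb and Vim. Ecm1, a secreted matrix protein known from Th2 cells, read 12.59, 12.04 and 12.65 in resting Th2 cells and 6.49, 6.77 and 7.07 in stimulated Naïve cells. The arrays did not overlap, and the difference of 5.65 (SE 0.19, 50.1-fold, adjusted p = 5.35e-14) was the largest of any gene that met the naming rule. Myo6, a myosin that moves toward the minus end of actin filaments, read 11.85, 11.86 and 11.49 against 6.24, 6.25 and 7.42, a difference of 5.09 (34.1-fold). Gpnmb, a membrane glycoprotein detected on 2 of the stimulated Naïve arrays, differed by 4.78 and Vim, the intermediate filament vimentin, by 4.75. The lipid receptors Ltb4r1, for leukotriene B4, and Cysltr1, for cysteinyl leukotrienes, followed. Ltb4r1 read 8.81, 9.24 and 9.36 in resting Th2 cells and 4.90, 4.31 and 4.58 in stimulated Naïve cells, where it was detected on 2 of 3 arrays. Cysltr1 was not well above background in any stimulated Naïve array and was at least 15.7-fold higher in resting Th2 cells. The remaining genes of the 12 were Lgals1, S100a6, Klf2, Ifitm2, Nlrc3 and the uncharacterized 4930486L24Rik, the last at least 9.0-fold higher.

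The genes that stood lowest in resting Th2 cells were led by an inflammatory chemokine, a cytokine and a transcription factor of the T cell receptor response. Ccl4 read 6.67, 7.16 and 7.11 in resting Th2 cells and 12.22, 11.58 and 11.55 in stimulated Naïve cells, a difference of -4.81 (SE 0.63, 28.0-fold lower, adjusted p = 9.86e-06). Ifng, the cytokine of Th1 cells, read 4.29, 5.77 and 4.25 against 10.12, 8.96 and 9.57 and was detected on only 1 of the resting Th2 arrays. Egr1 differed by -4.22, Ccl3 by -4.18, and Egr2, a zinc finger factor induced by T cell receptor signals, by -4.17. The other genes of the 12 were Cd40 (-3.87), Rgs16, a regulator of G protein signaling (-3.55, detected on 2 resting Th2 arrays), Il3 (at least 9.31-fold lower), Bdh2 (-3.44, detected on 1 resting Th2 array), the retinoic acid binding protein Crabp2 (at least 7.81-fold lower), the tryptophan-degrading enzyme Ido1 (-3.14) and Sema7a (-3.13). Not all of the 12 were raised by the stimulation. Egr1 had a higher mean in resting Naïve cells (11.64) than in stimulated Naïve cells (10.63). For Ccl4 these means were 10.49 and 11.78, a difference that was not called (limma, adjusted p = 0.103). Every other gene of the 12 had a lower mean in resting than in stimulated Naïve cells.

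**Figure D2:**
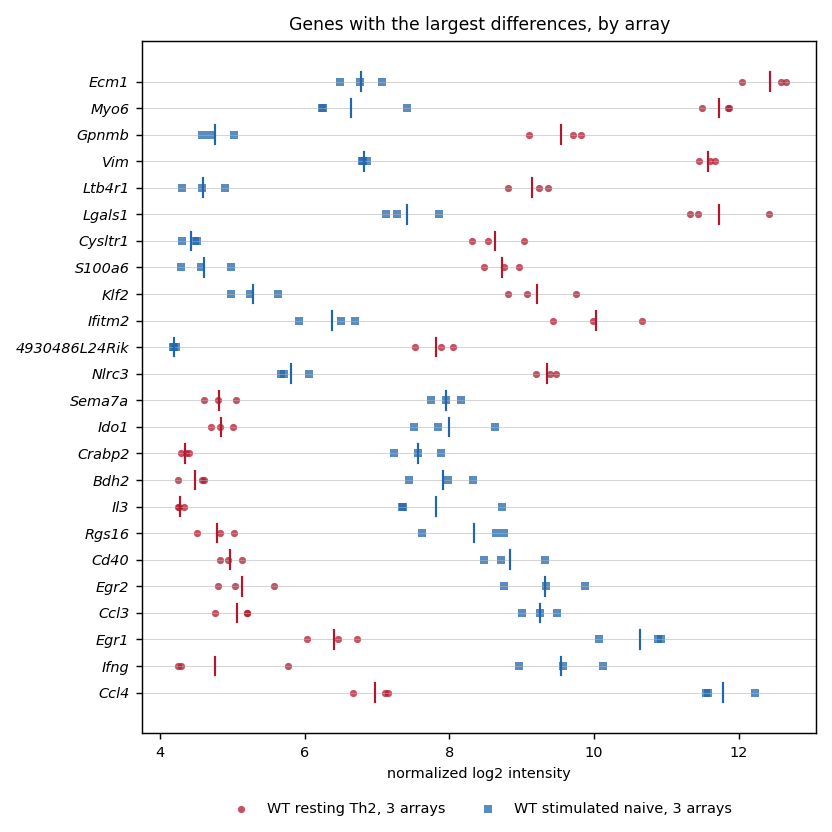
The 12 genes with the largest difference in each direction are shown with their normalized log2 intensity on the x axis, red circles for the 3 resting Th2 arrays, blue squares for the 3 stimulated naive arrays and vertical bars for the group means. For each gene the 3 arrays of a group lie wholly to one side of the other 3, from Ecm1 at the top to Ccl4 at the bottom.

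Th2 genes did not move as a group. Of 26 listed genes 22 were tested, and 5 were higher and 5 lower, where 11.4% and 12.1% of all genes were. The median difference of the list was 0.01. The lineage factor Gata3 read 9.75, 9.27 and 9.77 in resting Th2 cells and 8.92, 8.48 and 8.61 in stimulated Naïve cells. It was thus detected on every array and 1.9-fold higher in resting Th2 cells (difference 0.93, SE 0.18, adjusted p = 0.000653), although the call was lost with median scaling (0.68, adjusted p = 0.0634). Il24, a gene of the IL-10 family, read 9.43, 8.83 and 6.76 against 6.00, 5.61 and 7.24 (difference 2.06, adjusted p = 0.00353). The resting Th2 array of replicate C was below the highest stimulated Naïve array, and the difference missed the threshold when the 6 arrays were fitted alone (adjusted p = 0.0959). Pparg, a nuclear receptor that Th2 cells use, was detected on each resting Th2 array and no stimulated Naïve array and was at least 3.26-fold higher.

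Of the cytokine genes of the list, Il5, Il13, Il3 and Csf2 were lower in resting Th2 cells and Il4 and Il10 were not called. Il4 read 10.19, 9.74 and 8.35 in resting Th2 cells and 10.27, 9.27 and 9.40 in stimulated Naïve cells, so that the groups overlapped (difference -0.22, SE 0.48, adjusted p = 0.859). Il13 read 5.02, 4.78 and 4.35 against 6.50, 5.80 and 6.12, and Il5 read 4.81, 4.35 and 4.16 against 6.31, 5.34 and 5.41. Il13 was lower by 2.68-fold (adjusted p = 0.00059) and Il5 by 2.38-fold (adjusted p = 0.00291), and they were detected on 2 and 1 of the resting Th2 arrays. Csf2, which encodes GM-CSF, was 2.6-fold lower with detection on 1 resting Th2 array, and Il3 was not detected in any resting Th2 array. Il10 overlapped between groups (7.73, 7.79 and 6.84 against 7.53, 7.06 and 6.84). In WT Th2 cells given PMA and ionomycin for 1.5 h the mean level was 14.02 for Il4, 8.23 for Il13, 8.40 for Il5, 13.23 for Il3 and 12.97 for Il24. Of the other Th2 markers, Ccr4 and Ccr8 were detected on all 6 arrays without a call (0.09 and -0.61), and Il1rl1, the IL-33 receptor, was not detected on any.

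The genes of other helper lineages were mostly lower in resting Th2 cells where they were called. Tbx21, the lineage factor of Th1 cells, read 4.43, 4.31 and 5.06 in resting Th2 cells and 6.99, 7.45 and 7.08 in stimulated Naïve cells, a difference of -2.57 (SE 0.28, adjusted p = 1.13e-06). Of 12 Th1 genes tested 5 were lower and 3 higher. Tbx21 was detected on 1 of the resting Th2 arrays. Without the resting Th2 array of replicate C, 3 were lower and 2 higher. Il17f, a Th17 cytokine, was at least 5.33-fold lower, and it and Il17a (at least 2.26-fold lower) were the called genes among 7 of the Th17 list. Il17a lost its call without the resting Th2 array of replicate A (-1.26, adjusted p = 0.0524) or the stimulated Naïve array of replicate C (-1.04, adjusted p = 0.0981). Of 7 genes of follicular helper cells, 5 were lower, among them Cd200 (-2.3, detected on 1 resting Th2 array), Btla (-1.99) and Bcl6, the lineage factor (-1.26), and Icos (1.93) and Sh2d1a (1.23) were higher. Without the stimulated Naïve array of replicate A the lower genes fell to 3, and Bcl6 missed the threshold (-0.95, adjusted p = 0.0529). Foxp3, the factor of regulatory T cells, read 5.79, 5.75 and 6.14 against 7.61, 7.84 and 6.94 (difference -1.57, adjusted p = 0.000168), and Ikzf2 differed by -1.56. In all, 3 of 13 regulatory T cell genes were lower and 2 higher, where 12.1% and 11.4% of all genes were. The higher count was 1 with median scaling and without the resting Th2 array of replicate A or B or the stimulated Naïve array of replicate B or C, since Tnfrsf18 (1.05) then lost its call (0.92, 0.92, 0.94 and 1.01 without these arrays). In RNA from whole cultures, fewer cells of a type and less RNA per cell cannot be told apart.

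Genes known from the early response to the T cell receptor were mostly lower in resting Th2 cells where they were called. Of 35 listed genes tested, 14 were lower, 1 was higher and the median was -0.93. With median scaling 21 were lower. Against resting Naïve cells the list median was -0.58 in stimulated Naïve and -1.44 in resting Th2 cells. As a set these genes were thus not above their unstimulated level in stimulated Naïve cells at 24 h. The difference was -2.90 for Cd69, an early activation antigen, -2.26 for Irf8, detected on 2 resting Th2 arrays, -2.11 for the phosphatase Dusp2 and -1.85 for Irf4. The NF-κB genes Nfkb2 (-1.55, detected on 2 resting Th2 arrays) and Relb (-1.28) and the inhibitors Nfkbia (-1.58) and Nfkbid (-1.51) were also lower. Id2, an inhibitor of basic helix-loop-helix factors, was the gene that was higher, by 1.65. Myc read 5.59, 6.14 and 4.62 in resting Th2 cells and 6.31, 6.48 and 6.36 in stimulated Naïve cells. Its difference of -0.93 (adjusted p = 0.0346) lost the call when any array but the resting Th2 array of replicate B was left out, with values from -0.52 (without the resting Th2 array of replicate C) to -0.999 (without that of replicate A). The members Fos, Jun, Junb and Egr3 were not called.

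Chemokine genes were lower where they were called. Of 11 tested, 8 were lower and none higher, with a median of -1.37. Besides Ccl4 and Ccl3, Xcl1 was at least 6.45-fold lower, Ccl1 at least 2.96-fold, Cxcl10 at least 2.72-fold and Cxcl9 at least 2.08-fold, since none of these was detected on a resting Th2 array. Ccl5 was not called (0.62). Of 17 genes of the TNF family, 5 were lower, where 12.1% of all genes were. They were led by Tnf (-2.03, detected on 2 resting Th2 arrays) and Lta (-1.28), and Ltb, lymphotoxin β, was higher by 2.3. The lower genes numbered 2 without the resting Th2 or the stimulated Naïve array of replicate B and 3 without any other array.

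Receptors and ligands of costimulation moved in both directions, 3 of 20 higher and 8 lower. Cd83 read 4.62, 4.45 and 4.55 in resting Th2 cells and 7.95, 7.55 and 7.47 in stimulated Naïve cells, with detection on 1 resting Th2 array. Cd86 differed by -2.44, and the ligands of PD-1, Cd274 and Pdcd1lg2, by -2.01 and -2.13 (Pdcd1lg2 was detected on 2 resting Th2 arrays). Lag3, an inhibitory receptor, read 6.08, 5.92 and 7.50 against 8.40, 8.87 and 8.46 (difference -2.08). Cd40, Cd83, Cd86, Ido1 and Cxcl9 are best known from B cells, dendritic cells and macrophages, and the markers of those cells stood as follows. Of 9 B cell markers 1 was lower, Fcer2a (at least 2.98-fold), and 1 was higher, Fcmr (2.85), where 12.1% and 11.4% of all genes were. The defining markers Cd79a (4.77, 4.3 and 5.49 against 4.42, 4.5 and 4.58) and Cd79b (5.88, 4.74 and 7.88 against 7.04, 6.02 and 6.54) were not called, and Ms4a1 was not detected on any of the 6 arrays. Cd79a and Cd79b were highest on the array of replicate C within resting Th2 cells. Of the 9 markers 7 had a negative difference, and the list median was -0.36. The summed signal of the list went the other way, at 360 to 645 in resting Th2 and 176 to 363 in stimulated Naïve arrays. Of 17 myeloid and dendritic cell markers 1 was higher, Adgre1, at 7.23, 6.61 and 4.35 in resting Th2 cells with detection on 2 of the resting Th2 arrays and none of the stimulated Naïve arrays (at least 2.66-fold). It lost its call without the resting Th2 array of replicate A (1.30, adjusted p = 0.0989) or B (1.62, adjusted p = 0.0667). Without the resting Th2 array of replicate C, Adgre1 was higher by 2.75 and 2 markers of antigen-presenting cells, named after their values were seen, were lower: H2-Eb1, a class II MHC chain (-1.26, adjusted p = 0.0426, against -0.87 and 0.145 with all arrays), and Ly86 (-0.89, adjusted p = 0.0219, against -0.62 and 0.0981). The median of the list was then -0.233, against -0.07 with all arrays. Lyz2, Cd14 and Tyrobp were undetected on all 6 arrays, and the summed signal was 646 to 1720 against 905 to 1890. The part of such cells in these results was not tested. No marker among 8 of CD8 T cells and NK cells or among 4 of mast cells and basophils was called, and Cd8b1, of CD8 T cells, read 7.98 and 7.79 in the mean.

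Genes of cell growth formed the widest set of lower genes in resting Th2 cells. Of 72 ribosome biogenesis genes tested, 54 were lower, 36 of them at least 2-fold, and none was higher, with a median of -1.01, where 12.1% of all genes were lower. Rrp12, which exports and matures ribosomal subunits, read 8.17, 7.68 and 7.71 in resting Th2 cells and 9.80, 10.12 and 9.83 in stimulated Naïve cells, a difference of -2.06 (SE 0.19, adjusted p = 1.75e-07). Mrto4 differed by -1.87, Utp4 by -1.77, Rrp1b by -1.75 and Gnl3, the nucleolar protein nucleostemin, by -1.74. Between 46 and 55 were lower when single arrays were left out.

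Other lists that serve growth held mostly lower genes too. Of 39 translation factors 19 were lower and none higher, with Eif1a (-1.38) the lowest. Of 22 aminoacyl-tRNA synthetase genes and their scaffold 14 were lower and none higher, among them Aimp2 (-1.53), Iars (-1.33) and Gars (-1.27). Of 35 genes of amino acid transport and of the ATF4 response 18 were lower, led by the transporter of cationic amino acids Slc7a3, at 6.16, 5.91 and 5.45 against 8.99, 9.02 and 8.67 (difference -3.05), and by Srm, spermidine synthase (-2.18), and Chac1 (-2.10). Ddit4, an inhibitor of mTORC1, was the gene of that list that was higher (1.77, adjusted p = 0.019), a call lost without the resting Th2 array of replicate B (1.71, adjusted p = 0.0577) or the stimulated Naïve array of replicate A (1.64, adjusted p = 0.0657) or B (1.65, adjusted p = 0.0639). Of 30 genes of nucleotide synthesis 15 were lower and 2 higher, or 1 higher without the resting Th2 array of replicate A or B or the stimulated Naïve array of replicate A. Umps, of pyrimidine synthesis, differed by -1.85, Ctps, CTP synthase, by -1.76 and Gart, of purine synthesis, by -1.64, whereas the second CTP synthase gene, Ctps2, was higher by 1.22. Of 27 chaperone genes 14 were lower and none higher, Stip1 by -1.56 and Cct6a by -1.39. The proteasome moved least, with 10 of 40 subunit genes lower and only Psmd7 (-1.14) beyond 2-fold.

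**Figure D3:**
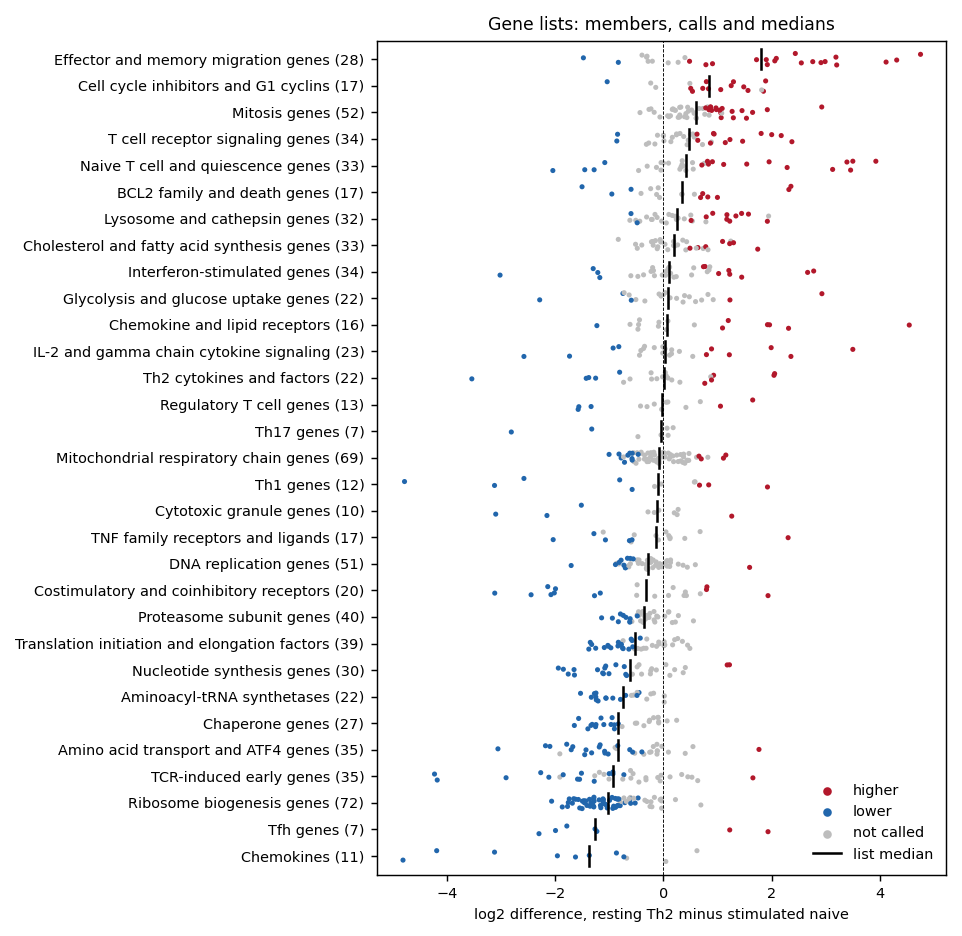
Each row is a gene list with its number of tested genes, each point is a gene at its log2 difference, resting Th2 minus stimulated naive, and the black bar is the list median (red called higher, blue lower, gray not called). Ribosome biogenesis, chaperone and nucleotide genes lie to the left of the dashed median of all genes (-0.008), and effector and memory migration genes lie furthest to the right (median 1.81).

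The E-box CACGTG is the element that MYC and its partner MAX bind, and it was looked for in the promoter windows that RefSeq annotation gives for GRCm38.p6, from 250 bases before to 50 after a gene's start. The letters read the same on both strands. They occurred in 12 of 70 windows of the ribosome biogenesis genes (17.1%, for the 62 of 72 genes with a window) and in 9.51% of the 10606 windows of all tested genes with a window. Over all called genes the share was 14.5% of 1279 windows for lower genes and 8.41% of 1320 for higher genes, and over all 32851 windows it was 7.15%. No test was made, and a match does not show binding. The 250 bases before the start are printed for the genes of the list called lower that have 1 window only and the element in it before the start, Imp4, at chr1:34439579-34439828, and Nop2, at chr6:125131633-125131882, both on the plus strand, with the element in capitals. Imp4 differed by -1.29 and Nop2 by -1.28.
Imp4: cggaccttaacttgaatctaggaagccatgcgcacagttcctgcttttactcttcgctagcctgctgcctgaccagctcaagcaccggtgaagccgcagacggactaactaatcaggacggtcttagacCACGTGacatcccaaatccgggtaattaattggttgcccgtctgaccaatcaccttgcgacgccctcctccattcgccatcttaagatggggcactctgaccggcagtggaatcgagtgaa
Nop2: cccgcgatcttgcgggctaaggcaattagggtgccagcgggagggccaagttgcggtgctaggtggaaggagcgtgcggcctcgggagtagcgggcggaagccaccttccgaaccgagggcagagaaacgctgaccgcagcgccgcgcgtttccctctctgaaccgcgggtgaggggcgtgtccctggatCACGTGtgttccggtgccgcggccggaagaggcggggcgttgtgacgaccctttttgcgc

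Genes of mitosis went the other way from genes of growth. Of 52 tested, 19 were higher in resting Th2 cells and none lower, with a median of 0.61, where 11.4% of all genes were higher. Cdc25b, a phosphatase that opens mitosis, read 7.32, 7.75 and 8.06 in resting Th2 cells and 4.42, 5.02 and 4.91 in stimulated Naïve cells (difference 2.92, SE 0.20, adjusted p = 2.06e-09), where it was detected on 2 arrays. The spindle protein Nusap1 differed by 1.92, the centromere histone Cenpa by 1.65 and the spindle protein Prc1 by 1.29. The count depended on single arrays: 8 were higher without the resting Th2 array of replicate C, 9 without the stimulated Naïve array of replicate A and 10 without that of replicate B, and 9 with median scaling. DNA replication genes did not rise with them. Of 51 tested, 1 was higher and 10 lower, where 11.4% and 12.1% of all genes were. Their median was -0.29, and 40 had a negative difference. E2f2, a transcription factor, was higher by 1.59, and Ung, which removes uracil from DNA, was lower (-1.70). Their lower count ranged from 4 to 12 when single arrays were left out, with 4 without the resting Th2 array of replicate B or the stimulated Naïve array of replicate C, 5 without the resting Th2 array of replicate A and 6 without the stimulated Naïve array of replicate B.

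Inhibitors of the cell cycle were higher beside the mitotic genes. Of 17 genes of G1 control, 12 were higher and 1 lower, with a median of 0.83. Cdkn1a, which encodes p21, read 9.82, 9.53 and 8.75 in resting Th2 cells and 7.90, 7.43 and 7.11 in stimulated Naïve cells (difference 1.89, SE 0.47, adjusted p = 0.00553). Cdkn2c differed by 1.85, Cdkn2d by 1.56 and Cdkn1b, which encodes p27, by 1.49, and Cdkn2a was at least 1.71-fold higher. Rb1, a brake on E2F factors, was higher by 1.25. The D cyclins parted, Ccnd2 being lower (-1.04) and Ccnd3 higher (0.80), a call lost with median scaling (0.51, adjusted p = 0.231).

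Genes of quiescence and of lymph node homing were more often higher than lower in resting Th2 cells. Of 33 tested, 13 were higher and 4 lower, with a median of 0.42. Klf2, a transcription factor that keeps T cells quiescent and drives homing receptors, read 8.81, 9.08 and 9.75 in resting Th2 cells and 5.63, 5.25 and 4.99 in stimulated Naïve cells, a difference of 3.92 (SE 0.21, 15.2-fold, adjusted p = 6.89e-11). Il7r, the IL-7 receptor, read 10.53, 9.97 and 10.05 against 6.78, 6.48 and 6.80 (difference 3.5). In resting Naïve cells the mean levels were 11 for Klf2 and 10.20 for Il7r. Igfbp4 differed by 3.46 and Txnip, an inhibitor of glucose uptake, by 3.39, and Pik3ip1, an inhibitor of PI3 kinase, was at least 3.63-fold higher. The list was not uniform. Ccr7, a lymph node homing receptor, was not called (5.39, 5.65 and 6.00 against 6.20, 6.5 and 5.71), Tcf7 was not called (0.76, adjusted p = 0.0699), and Actn1 (-2.04), Bach2 (-1.28) and Foxp1 (-1.08) were lower. Gimap5 was lower (-1.45, adjusted p = 0.0282), a call lost without any array but the resting Th2 array of replicate C (-1.28 to -1.51), and Gimap7 and Gimap6 of the same GTPase family were higher (1.95 and 1.11). The forkhead letters GTAAACA, which FOXO factors bind, occurred on either strand in 5 of 41 promoter windows of the list (12.2%), those of Btg1, Dapl1, Gimap3, Tcf7 and Txnip, and in 2.58% of the windows of all tested genes, 3.79% of those of genes called higher and 3.65% of all windows. Of these genes Gimap3 and Txnip were called higher, and Btg1, Dapl1 and Tcf7 were not called.

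Components of T cell receptor signaling were higher as well, 12 of 34 against 2 lower, with a median of 0.48. Without any array but the resting Th2 array of replicate C, 1 was lower. Themis, a thymocyte and T cell adaptor, differed by 2.37 with detection on 2 stimulated Naïve arrays, Dgka, which removes diacylglycerol, by 2.18, Cd3g, a chain of the receptor complex, by 2.00 and Rasgrp1 by 1.81. Of the 9 markers of T helper cells all were detected on all 6 arrays, and Thy1 (2.47), Cd3g and Cd3d (0.93) were higher. Their summed signal was 16700 to 17600 in resting Th2 and 7170 to 8100 in stimulated Naïve arrays. Cd3d missed the threshold with median scaling (0.73, adjusted p = 0.0511) and with Z-scores (0.97, adjusted p = 0.0507). Cd4 was not called (5.26, 6.01 and 5.55 against 4.77, 5.25 and 5.09).

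Genes of effector and memory cells, which serve the cytoskeleton, the membrane and adhesion, were mostly higher in resting Th2 cells. Of 28 tested, 18 were higher, 15 of them at least 2-fold, and 2 were lower, with a median of 1.81, the highest of all lists. Vim read 11.60, 11.67 and 11.45 in resting Th2 cells and 6.79, 6.81 and 6.87 in stimulated Naïve cells. Lgals1, galectin-1, read 11.33, 11.44 and 12.42 against 7.28, 7.12 and 7.86 (difference 4.31). S100a6, a calcium binding protein, read 8.48, 8.75 and 8.96 against 4.30, 4.57 and 4.98, with detection on 1 of the stimulated Naïve arrays. S100a13 differed by 3.20, Ahnak by 3.19, Anxa2, annexin A2, by 2.91, S100a10, its partner, by 2.55 and Anxa6 by 1.90. Of the integrin chains, Itgb7 (2.99) and Itgb2 (0.79) were higher. Itgav was lower (-0.83), but not without the resting Th2 array of replicate B (-0.75, adjusted p = 0.0858) or C (-0.84, adjusted p = 0.0521) or the stimulated Naïve array of replicate A (-0.77, adjusted p = 0.0752) or B (-0.70, adjusted p = 0.101). Selplg, the ligand of P-selectin, was higher by 2.09. Cd9 was lower (-1.48), a call lost without the resting Th2 array of replicate A (-1.30, adjusted p = 0.0523) or the stimulated Naïve array of replicate A (-1.27, adjusted p = 0.0589). Cd44, a standard marker of antigen experience, did not separate the groups (7.50, 7.24 and 7.45 against 7.77, 7.09 and 7.05).

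Receptors for chemokines and lipids were higher for 6 of 16 genes and lower for 1, or 2 without the resting Th2 array of replicate C. Cxcr4 read 7.09, 5.69 and 7.95 in resting Th2 cells and 4.42, 4.21 and 5.16 in stimulated Naïve cells (difference 2.31, adjusted p = 0.00163), and S1pr4 differed by 1.96, each with detection on 1 stimulated Naïve array. Cxcr5, which guides cells to follicles, was lower (-1.23).

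Of 17 genes of the BCL2 family and of cell death 6 were higher and 3 lower, or 3 and 3 with median scaling. Bcl2, which restrains apoptosis, read 9.07, 8.92 and 7.56 in resting Th2 cells and 6.15, 6.21 and 6.13 in stimulated Naïve cells (difference 2.36, SE 0.27, adjusted p = 2.53e-06), whereas its relative Bcl2l1 was lower (-1.5). The death-promoting genes Bbc3 (2.32) and Bax (1.00) were higher and Bid (-0.95) was lower. Of 23 genes of IL-2 and γ chain signaling 6 were higher and 4 lower, where 11.4% and 12.1% of all genes were. Socs2 differed by 1.99 and Stat5a by -1.73, and Il2ra, the α chain of the IL-2 receptor, did not separate the groups (8.50, 7.86 and 8.27 against 8.49, 8.10 and 8.54).

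Of 22 genes of glycolysis 2 were higher and 3 lower, with a median of 0.08, shares near the 11.4% and 12.1% of all genes. Hk2, hexokinase 2, read 8.67, 8.74 and 8.09 in resting Th2 cells and 10.71, 10.56 and 11.07 in stimulated Naïve cells (difference -2.28), and Aldoc, an aldolase, was higher by 2.93 with detection on 1 stimulated Naïve array. Without the stimulated Naïve array of replicate C, 5 were higher and 1 lower, and 1 was higher without that of replicate A or B or the resting Th2 array of replicate B. Of 69 respiratory chain genes 4 were higher and 10 lower, where 11.4% and 12.1% of all genes were. The lower count was 4 without the resting Th2 array of replicate B or the stimulated Naïve array of replicate A, and 5 without the stimulated Naïve array of replicate C. Of 33 genes of cholesterol and fatty acid synthesis 7 were higher, led by the desaturases Fads2 (1.74) and Scd2 (1.30), detected on 1 and 2 stimulated Naïve arrays, and none lower. With median scaling 3 were higher and 2 lower, and 4 were higher without the resting Th2 array of replicate B or the stimulated Naïve array of replicate C. Of 32 lysosomal genes 10 were higher and 2 lower, or 1 lower without any single array, with Grn, progranulin, at 1.92 and Lgmn, legumain, at 1.57.

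Of 34 interferon-stimulated genes 8 were higher and 4 lower, where 11.4% and 12.1% of all genes were, so that the lower share was near that of all genes. Gbp2, a GTPase induced by IFN-γ, read 9.35, 9.57 and 9.99 in resting Th2 cells and 12.69, 12.65 and 12.62 in stimulated Naïve cells (difference -3.02, SE 0.24, adjusted p = 2.49e-08), and Irf1 (-1.29), Igtp (-1.21) and Irgm1 (-1.17) were lower too. Ifi27l2a (2.78), Samd9l (2.66) and the RNA sensor Ddx58 (1.23, detected on 2 stimulated Naïve arrays) were among the higher genes. The higher count was 3 without the resting Th2 array of replicate A or of replicate B, 13 without that of replicate C, and 5 and 4 without the stimulated Naïve arrays of replicates A and B, and 4 with median scaling, whereas 4 genes were lower in each case. Of 10 genes of cytotoxic granules 1 was higher and 3 lower.

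**Figure D4:**
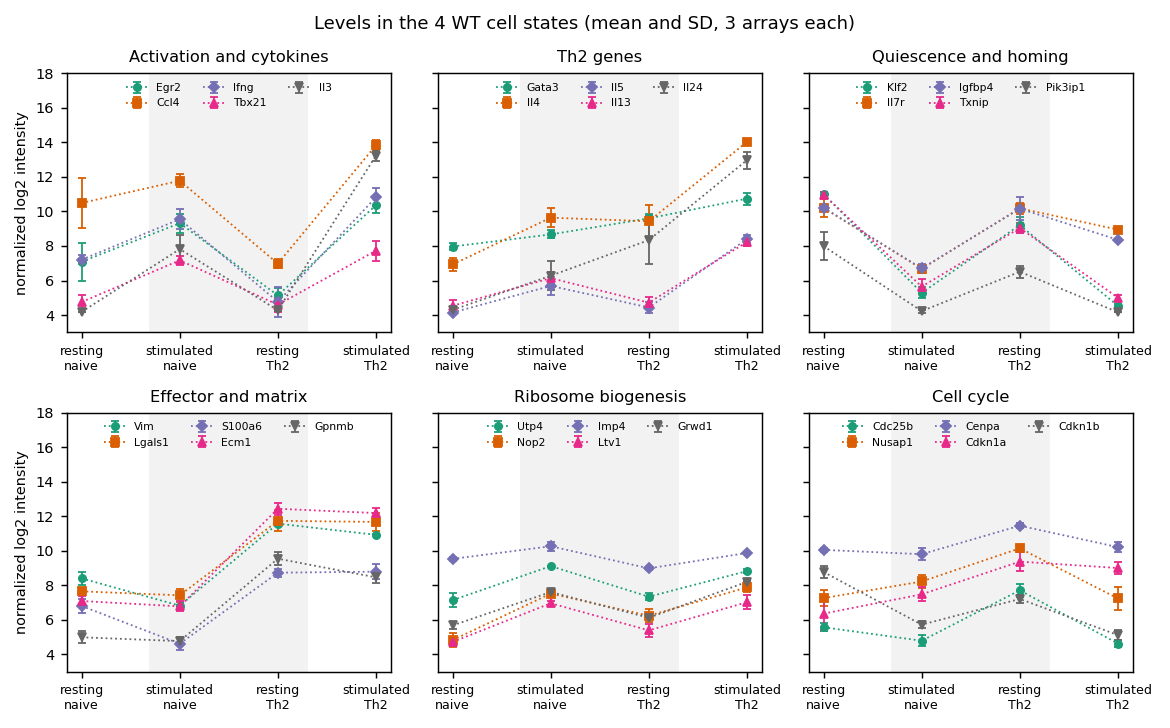
Mean normalized log2 intensity and SD over 3 arrays in the 4 WT states for genes of 6 groups, with dotted lines only to guide the eye and the compared states shaded. Il7r is lowest in stimulated naive cells, Klf2 (5.29 and 4.54) and Txnip are low in both stimulated states, and Vim, Lgals1 and Ecm1 are higher in both Th2 states than in both naive states.

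The levels in the other WT states were as follows. Ribosome biogenesis genes had a median difference of 1.33 between stimulated and resting Naïve cells and of 0.32 between resting Th2 and resting Naïve cells. For the genes of effector and memory cells the same medians were -0.74 and 0.36, for quiescence genes -1.31 and -1.01, and for mitosis genes 1.35 and 2.13. These comparisons share arrays with the main one and are given side by side only. Ecm1 had a mean of 7.09 in resting Naïve, 6.78 in stimulated Naïve, 12.43 in resting Th2 and 12.18 in stimulated Th2 cells. Vim had means of 8.40, 6.82, 11.57 and 10.92 in the same order, and Klf2 of 11, 5.29, 9.21 and 4.54.

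The contrast was repeated in BAF180-deficient cells on arrays that it does not share with WT cells. Of the 2455 genes called in WT cells, 2448 (99.7%) differed in the same direction and 1893 (77.1%) were also called, which is 82.6% of the 2293 genes called in deficient cells. Across genes, which are not independent replicates, the differences correlated with r = 0.937. Ecm1 differed by 5.55 in deficient cells, Klf2 by 3.93, Ccl4 by -4.79 and Tbx21 by -2.82. The median of the ribosome biogenesis genes was -0.93, that of the effector genes 1.69 and that of the mitosis genes 0.41. No gene was called as different between genotypes in this contrast (limma interaction, lowest adjusted p = 1.0). An unadjusted p below 0.05 was reached by 166 of 14246 probes, a smaller share than that threshold would give without any difference. The lack of calls therefore does not show that the genotypes were equal. Among the genes with at least a 2-fold call, 2 had the opposite sign in deficient cells. Nrn1 differed by 1.08 in WT cells, at 7.74, 7.75 and 5.99 in resting Th2 and 6.12, 6.09 and 6.02 in stimulated Naïve cells, and by -0.56 in deficient cells. Its WT call was lost without any array but the resting Th2 array of replicate C, with values from 0.79 to 1.1. Pdlim4 differed by 1.50 in WT cells, at 8.02, 8.01 and 6.61 against 6.14, 5.95 and 6.05, and by -0.001 in deficient cells. The resting Th2 array of replicate C was the lowest of its group for both, and the interaction was not called for either (adjusted p = 1.0).

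**Figure D5:**
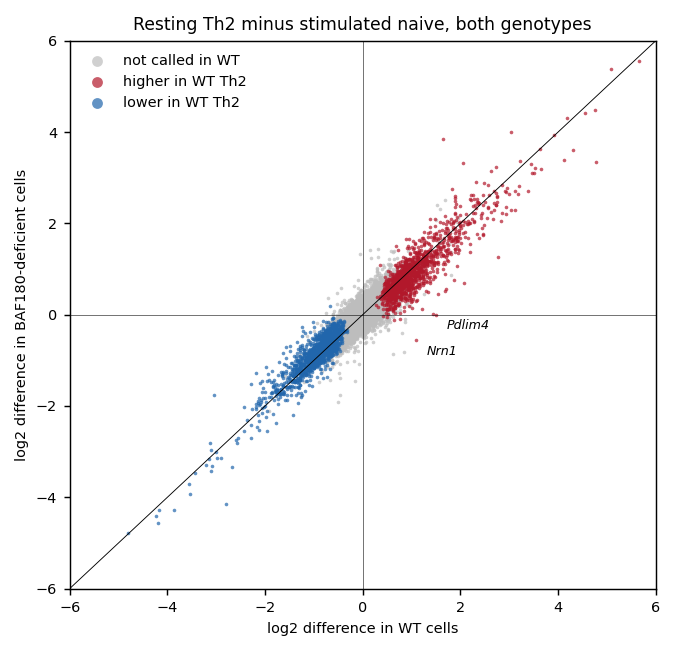
Each point is a gene with its log2 difference, resting Th2 minus stimulated naive, in WT cells on the x axis and in BAF180-deficient cells on the y axis, and the diagonal marks equal differences. Genes called in WT cells (red higher, blue lower) spread along the diagonal, r = 0.937 across all genes, with Nrn1 and Pdlim4 below it.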

How the data were processed

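Total RNA was labelled as biotin cRNA and hybridized to Illumina MouseRef-8 v2 BeadChips. The authors deposited the average bead intensity of each of 25697 probes from GenomeStudio (version 1.6.0 in the submitters' processing notes), not normalized, with a detection p-value per probe and array. All 24 arrays were background corrected with normexp on the detection p-values (offset 16), quantile normalized and log2 transformed (neqc, limma 3.58.1, R 4.3.3). The 14246 probes detected (p at most 0.02) on at least 1 array were fitted with 8 group means (lmFit, eBayes), and p-values were adjusted by Benjamini-Hochberg over them. Current symbols were assigned by Entrez ID for 16938 probes, then by RefSeq accession (7418), by symbol (467) and by synonym (552); the other 322 carry the name given in the table. Genes stand as their brightest probe. A gene detected on no array of a group has only a bound, taken from the lowest signal detected there. Levels of different genes are not compared, since probes differ. The fit was tested on simulated data with 200 of 14246 probes changed. It recovered 2.5% of them at a log2 change of 0.5, 74% at 1 and 100% at 2. Of its calls 16.7%, 5.7% and 4.8% were false. The data held far more called probes, 1539 higher and 1639 lower. The adjustment is then less strict, so that these rates need not hold for the data. A gene that was not called may thus still differ. With 3 arrays per group the number of arrays limits the precision (median SE 0.193). The study describes its arrays as drawn from 3 pairs of mice, and the labels tie no replicate letter to a mouse. Alternatives were other normalizations, filters, moderation and subsets of arrays, each array left out, and the thresholds of 3 criteria of the methods, applied to the limma fit. Named genes are the 12 with the largest difference each way among called, non-overlapping genes detected on every array of the higher group, up to 5 called members each way per list, members that define a list, and detected markers of other cells; further list members named were chosen after their values were seen. The comparison and the 36 lists were chosen with earlier results of these data known. A few genes are not reported here.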

Additional observations from a re-analysis of the deposited data

How the results depend on the processing

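No called gene changed direction under any alternative. The counts of 1190 higher and 1265 lower genes moved by no more than 1.5 times under every alternative with the same threshold, and between 969 and 1026 higher and between 996 and 1098 lower genes were called when single arrays were left out. The genes with at least a 2-fold difference, 553 higher and 503 lower, fell to 336 and 304 with Z-scores and to 344 and 301 without background correction; the cause was not tested. The thresholds of 3 of the study's 4 criteria for a call were also applied to the limma fit. The Z-ratio was here the log2 difference over its SD across probes. The FDR and p were those of limma, whereas the study took its measures from Z-scores. With a Z-ratio beyond 1.5 (a log2 difference of 0.93), an FDR below 0.3 and a p below 0.05, there were 657 higher and 595 lower genes. The fourth criterion, on background-corrected signal, was not applied. Of 231 called genes that were followed, 175 were called under every alternative and 56 lost the call under at least 1, of which 46 lost it when a single array was left out. Of the list medians, 530 values stayed within the spread between arrays and 46 moved by more. The median of the Th2 list, at 0.01, was -0.074 with median scaling. It was -0.217 over the 17 genes left when detection on all 3 arrays of a group was required. The letters A, B and C were not read as pairs, and the labels tie no letter to a mouse. Deviations of same-lettered arrays from their group means correlated at -0.000321 for A, 0.172 for B and 0.187 for C. Those of arrays with different letters correlated at -0.269 to 0.06, so that the values for B and C were the highest. Whether the letters mark pairs was not settled. With the letter within each genotype as a replicate block, 1286 genes were higher and 1345 lower, and 0 genes differed between genotypes. Of the followed genes, Il18r1 and Rsad2 lost their call with this block. The difference between genotypes gave 0 genes in limma under each alternative, with 76 to 349 probes or genes at an unadjusted p below 0.05.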

Other observations

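Ctse, the aspartic protease cathepsin E, was not called and varied widely between arrays. It read 10.21, 6.98 and 5.69 on the resting Th2 arrays of replicates A, B and C and 7.63, 4.84 and 4.58 on the stimulated Naïve arrays of the same letters, so that replicate A was the highest of its group in both states. The difference was 1.94 with an SE of 1.47 (limma, adjusted p = 0.426). Ccng2, a cyclin of cells that leave the cycle, narrowly missed the threshold (7.29, 6.98 and 5.36 against 4.57, 5.19 and 4.43, adjusted p = 0.0548), with the resting Th2 array of replicate C the lowest of its group.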
